A study of Mus musculus with 20 samples.

Results

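The Wnt ligands, their Frizzled receptors and 14 further genes of Wnt reception, modulation and nuclear response were followed in 20 RNA sequencing libraries of mouse neurospheres, free-floating clusters grown from neural stem and progenitor cells. Members were chosen by name: all 19 genes listed as Wnt and a number, all 10 listed as Fzd and a number, and Lrp5, Lrp6, Axin2, Lef1, Tcf7l1, Tcf7l2, Sfrp1, Dkk3, Wif1, Notum, Ror1, Ror2, Ryk and Porcn. They make 43 of the 36724 genes in the table. A filter on low values (at least 0.5 RPKM, a read density scaled to gene length and library size, in at least 3 libraries) kept 28 of them: 6 Wnt genes, 10 Frizzled genes and 12 others. It kept 16403 genes in all, or 44.7% of the table.

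Wnt proteins are secreted lipid-modified signals, and the membrane enzyme Porcn adds the lipid. They bind Frizzled receptors, and together with the co-receptors Lrp5 or Lrp6 this spares beta-catenin from destruction, so that it can join the DNA-binding factors Lef1, Tcf7l1 and Tcf7l2 on target genes such as Axin2, itself a brake on the pathway. Other Wnt signals run without beta-catenin through Ror1, Ror2 and Ryk, and secreted proteins such as Sfrp1, Wif1 and Notum restrain them. In the adult brain the pathway is known for its part in the upkeep and neurogenesis of hippocampal and subventricular stem cells.

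All donors were adult C57BL6 mice of 8 to 12 weeks, either knockout (EGFL7-/-) or wild type for Egfl7, a secreted protein that binds Notch receptors, and no spheres were treated. The subventricular zone (SVZ) groups of the first sphere round came from male donors and were harvested on day 3 of culture, 3 libraries of each genotype. The first-round hippocampal groups, called HC1, were harvested on day 5, with 3 knockout libraries from males and 3 wild-type libraries from females, so sex and genotype cannot be told apart there. The second-round hippocampal groups, HC2, were harvested on day 5, with 4 knockout and 4 wild-type libraries from males. Every group grew in the same medium with B27 supplement, EGF and FGF. How the knockout allele was made is not given in the labels. SVZ and hippocampal spheres differ in culture day as well as in tissue. HC2 differs from the other 2 sphere kinds in sphere round. The labels give no library or sequencing date.

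HC2 libraries held values for 20640 to 22204 genes and first-round libraries for 19109 to 20158, and from the steps of low values HC2 depth was estimated at 2.1 times that of HC1. Egfl7 was at 0 in all 7 hippocampal knockout libraries and between 0.566 and 1.59 RPKM in the 7 hippocampal wild types. In the SVZ, the library labelled knockout replicate 2 had 2.86 RPKM and the library labelled wild type replicate 3 had 0, against their labels. All 6 neural stem and progenitor markers were measured above 0 in every library, from Prom1 at 2.00 to 9.55 RPKM to Fabp7 at 3726 RPKM or more. Of 7 markers of microglia and macrophages, Cx3cr1 was at 0 in all 20 libraries, Aif1, Ptprc and Tmem119 in 16 and Csf1r in 8. Cd68, by contrast, lay between 1.2 and 5.33 RPKM and P2ry12 between 0.033 and 0.97 RPKM. Of 6 endothelial markers, Cdh5 and Cldn5 were at 0 in 19 libraries, Emcn in 7 and Pecam1 in 4. Kdr lay between 0.179 and 1.36 RPKM and Tek between 0.024 and 0.5 RPKM. Of 4 blood markers, Hbb-bs was at 0 in all 20 libraries, Hba-a2 in 19 and Hba-a1 in 18, whereas Alas2 lay between 0.044 and 0.295 RPKM. Among oligodendrocyte lineage markers, Olig1 lay between 195 and 994 RPKM and Olig2 between 140 and 361 RPKM, while Mog stayed at 0.742 RPKM or less. The ependymal marker Foxj1 lay between 6.89 and 36.8 RPKM, with Ak7 and Dnah5 at 0.225 RPKM or less. The 21 genes of a cell cycle list averaged 6.91 to 7.09 on the log2(RPKM + 1) scale in the SVZ libraries, 4.92 to 6.32 in HC1 and 1.87 to 6.12 in HC2. The 6 astrocyte markers averaged 3.05 to 4.24 in SVZ, 4.85 to 6.53 in HC1 and 4.54 to 7.54 in HC2.

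No member was called between Egfl7 knockout and wild type in any of the 3 sphere kinds. With 3 or 4 libraries per group, real differences could go uncalled. Between sphere kinds, 6 of the 28 tested members differed from SVZ to HC1, 16 from HC2 to HC1 and 19 from SVZ to HC2 (limma, adjusted p under 0.05 over all tested genes). These are 21.4%, 57.1% and 67.9% of the members, beside 34.1%, 54.3% and 67.2% of all genes. With both directions pooled, the members were thus called at shares near the background or, from SVZ to HC1, below it. By direction, 4 were higher and 2 lower in SVZ than in HC1 (14.5% and 19.6% of all genes), 12 higher and 4 lower in HC2 than in HC1 (22.8% and 31.5%), and 6 higher and 13 lower in SVZ than in HC2 (34.7% and 32.6%). In both comparisons with HC2, the share of members higher in HC2 was above that of all genes, and the share lower in HC2 was below. This tilt was not tested, and the 3 comparisons share libraries. The median member differed by -0.02 (SVZ minus HC1), 0.20 (HC2 minus HC1) and -0.29 (SVZ minus HC2) on the log2 scale, and the median of all tested genes by -0.03, -0.06 and 0.00147. Differences are of log2(RPKM + 1), which understates the change of low genes, and each is given with its standard error (SE). In these bulk libraries, fewer cells of a type and less RNA per cell cannot be told apart.

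**Figure D1:**
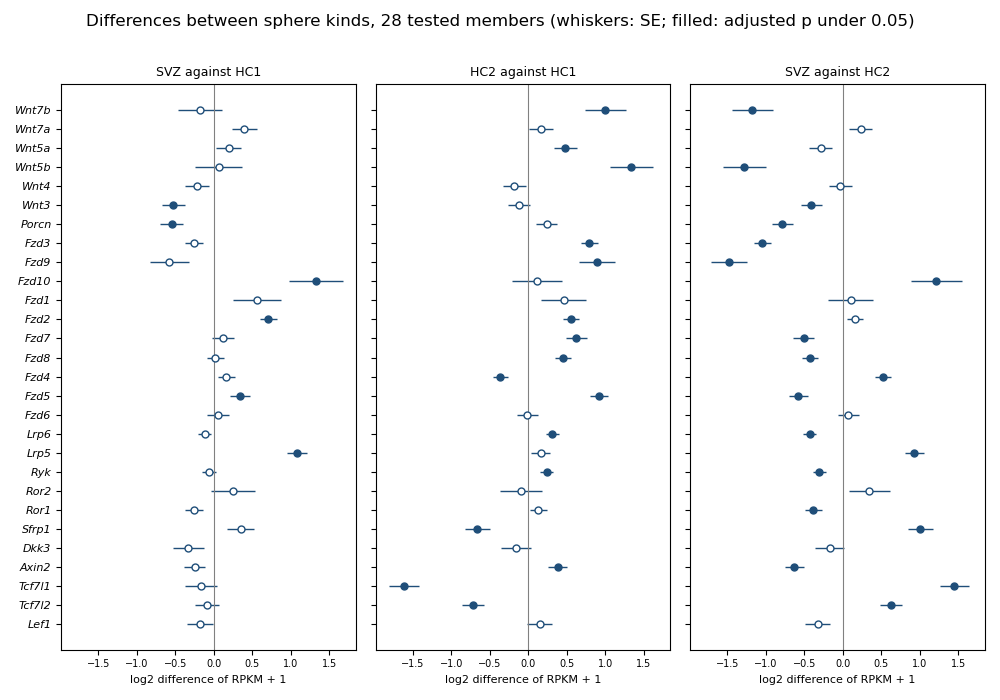
Log2 differences of RPKM + 1 for the 28 tested members (points; whiskers show the SE) from SVZ to HC1, HC2 to HC1 and SVZ to HC2, with filled points where the adjusted p was under 0.05. From HC2 to HC1, 12 members lie to the right of 0 and 4 to the left among the filled points, and Tcf7l1 lies farthest left at -1.61.

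Among the ligands, Wnt7b, Wnt7a and Wnt5a made up 88.5% to 97.8% of the summed Wnt RPKM of a library. RPKM values are scaled to gene length, but the lengths used are not given and exon capture can act unequally on genes, so levels of different genes compare only roughly. Wnt7b and Wnt7a are close relatives known for roles in brain development and vascularisation, and Wnt5a is the best known ligand of signalling without beta-catenin. Wnt7b measured 41.3, 38.2 and 41.9 RPKM in SVZ wild types and 40.4, 34.5 and 35.3 RPKM in SVZ knockouts. In HC1 it measured 78.9, 37.5 and 35.3 RPKM in wild types and 49.2, 37.0 and 36.0 RPKM in knockouts. The HC1 wild-type library at 78.9 RPKM stood well above the other 5 HC1 libraries, and it also had the most Gfap, the astrocyte filament gene, of HC1, at 149 RPKM. Whether Wnt7b goes with Gfap was not tested. Among HC2 libraries, wild type replicate 5 had the most Gfap (536 RPKM) with 77.0 RPKM of Wnt7b, whereas knockout replicate 8 had 328 and 134 RPKM. In HC2, Wnt7b measured 44.0, 110, 77.0 and 138 RPKM in wild types and 53.3, 145, 69.1 and 134 RPKM in knockouts, spread widely in both genotypes and all above the SVZ libraries. Wnt7b was thus higher in HC2 than in HC1 (log2 difference 1.00, SE 0.27, adjusted p = 0.00444, limma) and lower in SVZ than in HC2 (-1.18, SE 0.27, adjusted p = 0.000941). With the cell cycle mean as a covariate, chosen after seeing the data, these differences were 0.43 (adjusted p = 0.163) and -0.20 (adjusted p = 0.65). In this mean every SVZ library lay above every hippocampal one, so covariate values of all SVZ comparisons are extrapolated.

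Wnt7a, by contrast, did not pass in any sphere comparison. Its lowest, median and highest values were 31.1, 40.9 and 49.5 RPKM in SVZ, 23.7, 32.7 and 36.2 RPKM in HC1 and 21.3, 36.0 and 47.1 RPKM in HC2. The 3 ranges overlap, and SVZ minus HC1 was 0.40 (SE 0.16, adjusted p = 0.0653). The ratio of Wnt7b to Wnt7a within a library ran from 0.817 to 1.11 in SVZ, from 1.03 to 3.33 in HC1 and from 0.934 to 4.47 in HC2. Wnt5a had 24.7, 28.2 and 37.8 RPKM as lowest, median and highest SVZ values, 18.4, 25.4 and 34.1 RPKM in HC1 and 20.1, 35.4 and 51.6 RPKM in HC2. It was higher in HC2 than in HC1 (0.48, SE 0.15, adjusted p = 0.0124) with overlapping values. In the knockout groups alone this was 0.45 (adjusted p = 0.109).

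Wnt5b, a relative of Wnt5a, was the called ligand with the largest shift between hippocampal rounds. It lay at 1.31, 1.57 and 2.58 RPKM (lowest, median, highest) in HC1, at 1.15, 1.33 and 4.23 RPKM in SVZ and at 2.58, 5.21 and 12.8 RPKM in HC2. The highest HC2 values came from wild type replicate 5 (12.8 RPKM) and knockout replicate 8 (10.2 RPKM), the libraries with the most Gfap (536 and 328 RPKM). Wnt5b was higher in HC2 than in HC1 (1.34, SE 0.28, adjusted p = 0.000708) and lower in SVZ than in HC2 (-1.28, SE 0.28, adjusted p = 0.000764). With the cell cycle covariate the second difference was -0.34 (adjusted p = 0.488).

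The remaining ligands were low. Wnt4, a ligand with roles in kidney and gonad development, had group means from 0.712 to 1.16 RPKM and did not pass in any comparison. Wnt3, a ligand of the beta-catenin branch, measured 0.095, 0.355 and 0.245 RPKM in SVZ wild types and 0.087, 0.088 and 0 RPKM in SVZ knockouts. In HC1 it measured 1.42, 0.806 and 0.613 RPKM in wild types and 0.281, 0.582 and 0.370 RPKM in knockouts. These values rest on 10 reads over the 6 SVZ libraries and 45 over the 6 HC1 libraries, recovered as whole reads from the steps of its values. The highest SVZ value, 0.355 RPKM, was below the 0.5 RPKM of the filter, which Wnt3 met through hippocampal libraries alone. Its place among the tested genes thus rested on the groups where it was higher. With this limit, Wnt3 was lower in SVZ than in HC1 (-0.53, SE 0.15, adjusted p = 0.0139, limma) and than in HC2 (-0.41, SE 0.14, adjusted p = 0.0171), with overlapping values each time. With the cell cycle covariate these were -0.44 (adjusted p = 0.0624) and -0.19 (adjusted p = 0.528), and in the knockout groups alone the first was -0.41 (adjusted p = 0.234).

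The other 13 Wnt genes did not reach the filter. Wnt1, Wnt3a, Wnt8a, Wnt9b and Wnt10b were listed at 0 in all 20 libraries. Of the rest, the highest single values were 0.602 RPKM for Wnt9a, 0.520 for Wnt2b, 0.385 for Wnt8b, 0.299 for Wnt2, 0.192 for Wnt6, 0.143 for Wnt16, 0.101 for Wnt11 and 0.062 for Wnt10a. Wnt8b, known from the developing hippocampal region, gave 19 reads, all of them in 5 HC2 libraries. Wnt6 gave 20 reads in HC2 and 1 in SVZ. HC2 was also deeper, and the part of depth in these first-round counts was not tested. For Wnt8b, 3 reads would have given 0.0870 to 0.233 RPKM, depending on the library.

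Porcn, the enzyme that lipidates Wnt proteins, was lowest in SVZ. Its lowest, median and highest values were 5.23, 8.29 and 9.72 RPKM in SVZ, 10.6, 12.2 and 13.3 RPKM in HC1 and 10.4, 15.1 and 19.5 RPKM in HC2, so every SVZ library lay below every hippocampal one. SVZ was lower than HC1 (-0.54, SE 0.15, adjusted p = 0.0112) and than HC2 (-0.78, SE 0.14, adjusted p = 0.000105). Porcn is on chromosome X, and in the knockout groups alone, whose donors were all male, the first of these was -0.60 (adjusted p = 0.092). It was -0.40 (adjusted p = 0.0761) without the 2 SVZ libraries whose Egfl7 went against the label. With the cell cycle covariate, the differences from HC1 and HC2 were -0.37 (adjusted p = 0.0625) and -0.36 (adjusted p = 0.145). SVZ overlaps neither hippocampal kind in that covariate.

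**Figure D2:**
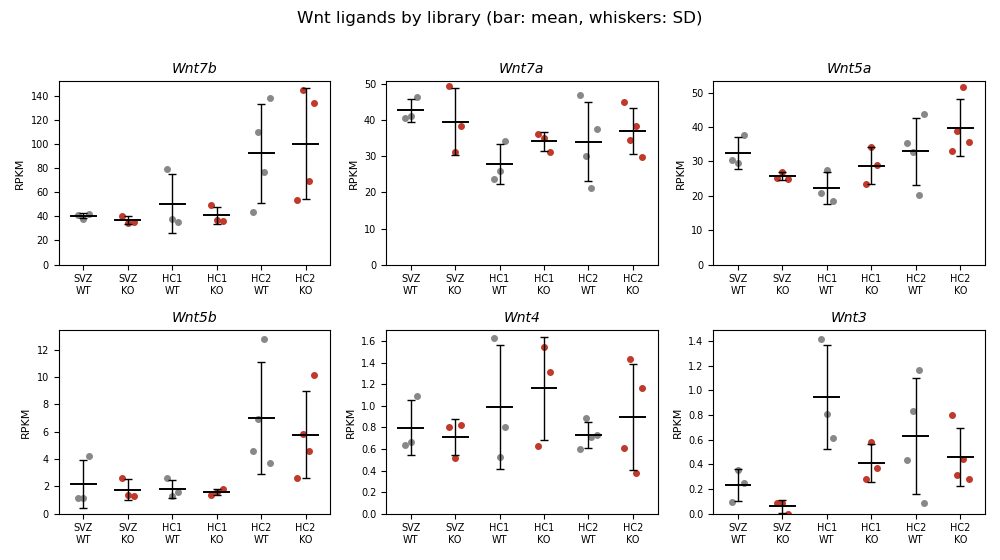
RPKM of 6 Wnt ligands in each library (points; wild type grey, knockout red), with the group mean (bar) and SD (whiskers); each panel has its own axis from 0. Wnt7b reaches 145 RPKM in HC2 and stays at or below 41.9 RPKM in SVZ, while the Wnt7a groups overlap.

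Of the Frizzled receptors, Fzd3 had the highest RPKM in 20 of 20 libraries. Fzd3 is best known for axon guidance and planar cell polarity. It measured 46.7, 44.8 and 41.0 RPKM in SVZ wild types and 47.7, 53.5 and 46.3 RPKM in SVZ knockouts. In HC1 it measured 57.8, 56.0 and 55.9 RPKM in wild types and 60.2, 51.0 and 54.1 RPKM in knockouts. The HC2 values were 82.3, 121, 109 and 112 RPKM in wild types and 73.8, 112, 72.3 and 112 RPKM in knockouts. All 8 HC2 libraries thus lay above all 12 first-round libraries. Fzd3 was higher in HC2 than in HC1 (0.79, SE 0.11, adjusted p = 1.13e-05) and lower in SVZ than in HC2 (-1.05, SE 0.11, adjusted p = 3.23e-07). Of the 10 Frizzled genes, 9 were at 1 RPKM or more in most libraries, and Fzd6 stayed at a median of 0.372 RPKM.

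Fzd9, a receptor with known expression in the hippocampus, showed the same order. It ran from 6.17 through a median of 13.6 to 14.8 RPKM in SVZ, from 15.0 through 17.6 to 22.6 RPKM in HC1 and from 18.7 through 40.1 to 52.5 RPKM in HC2. The SVZ values lay below all others, and the lowest HC2 values, 18.7 RPKM in wild type replicate 2 and 19.3 RPKM in knockout replicate 1, fell within the HC1 range. HC2 minus HC1 was 0.89 (SE 0.23, adjusted p = 0.00405), SVZ minus HC2 was -1.47 (SE 0.23, adjusted p = 3.63e-05) and SVZ minus HC1 was -0.58 (SE 0.25, adjusted p = 0.0843). With the cell cycle covariate the first was 0.45 (adjusted p = 0.128) and the second -0.72 (adjusted p = 0.0769). In the knockout groups alone the first was 0.78 (adjusted p = 0.0757).

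Fzd10 and Fzd2 were highest or among the highest in SVZ. Fzd10 measured 14.9, 20.9 and 28.6 RPKM in SVZ wild types and 16.9, 16.7 and 16.4 RPKM in SVZ knockouts. HC1 had 3.49, 6.42 and 6.72 RPKM in wild types and 7.44, 6.96 and 12.3 RPKM in knockouts, all below the SVZ libraries. HC2 had 14.7, 3.04, 2.80 and 7.26 RPKM in wild types and 12.2, 6.81, 20.0 and 4.92 RPKM in knockouts, so that 1 HC2 library reached into the SVZ range. Fzd10 was higher in SVZ than in HC1 (1.33, SE 0.35, adjusted p = 0.00896) and than in HC2 (1.22, SE 0.33, adjusted p = 0.0034). Its SVZ difference from HC1 was 1.22 (adjusted p = 0.0511) without the 2 SVZ libraries whose Egfl7 went against the label and 0.88 (adjusted p = 0.272) in the knockout groups alone. That from HC2 turned to -0.36 (adjusted p = 0.223) with the cell cycle covariate. SVZ and HC2 do not overlap in that covariate.

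Fzd2, a widely expressed receptor, lay between 12.6 and 14.9 RPKM in SVZ with a median of 13.4, between 7.35 and 8.95 RPKM in HC1 with a median of 7.60 and between 9.01 and 16.4 RPKM in HC2 with a median of 11.7. All HC1 libraries were below all others. SVZ exceeded HC1 by 0.71 (SE 0.11, adjusted p = 0.000306) and HC2 exceeded HC1 by 0.55 (SE 0.10, adjusted p = 0.000227).

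The low receptors Fzd5, Fzd7 and Fzd8 were higher in HC2 than in both first-round kinds. Fzd5 ran from 0.975 to 1.32 RPKM in HC1, from 1.34 to 2.35 RPKM in SVZ and from 2.24 to 4.38 RPKM in HC2. HC1 thus lay below SVZ and HC2, while SVZ and HC2 met at the edge. HC2 minus HC1 was 0.92 (SE 0.12, adjusted p = 6e-06) and SVZ minus HC2 was -0.58 (SE 0.12, adjusted p = 0.000459). SVZ minus HC1 was 0.34 (SE 0.13, adjusted p = 0.0496), a call that was lost in 16 of 22 other settings. Fzd7 had medians of 3.91 RPKM in HC1 and 7.36 RPKM in HC2 (HC2 minus HC1 0.62, SE 0.13, adjusted p = 0.00085), and SVZ stood at 4.73 RPKM. Fzd8 had medians of 4.40 RPKM in HC1, 4.16 RPKM in SVZ and 6.45 RPKM in HC2 (HC2 minus HC1 0.45, SE 0.11, adjusted p = 0.00169). In the knockout groups alone the HC2 minus HC1 differences were 0.42 (adjusted p = 0.0933) for Fzd7 and 0.12 (adjusted p = 0.547) for Fzd8. SVZ minus HC2 for Fzd8 was -0.43 in limma with (adjusted p = 0.0591) and without (adjusted p = 0.0018) the cell cycle covariate.

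Fzd4, the receptor of Norrin as well as of Wnts, went the other way, with medians of 3.57 RPKM in SVZ, 3.41 RPKM in HC1 and 2.31 RPKM in HC2. It was lower in HC2 than in HC1 (-0.36, SE 0.10, adjusted p = 0.00687) and higher in SVZ than in HC2 (0.52, SE 0.10, adjusted p = 0.000258), where the 2 ranges did not overlap. These were -0.30 (adjusted p = 0.0589) and 0.42 (adjusted p = 0.0514) with the cell cycle covariate. Fzd1, a receptor of the beta-catenin branch, passed in none of the comparisons, and it spread from 6.75 to 28.4 RPKM among HC2 libraries alone.

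The co-receptors Lrp5 and Lrp6 parted between sphere kinds. Lrp5 measured 19.8, 15.6 and 20.4 RPKM in SVZ wild types and 20.2, 21.3 and 17.1 RPKM in SVZ knockouts. HC1 had 7.63, 8.25 and 8.07 RPKM in wild types and 9.73, 8.83 and 8.04 RPKM in knockouts. HC2 had 7.96, 12.1, 7.68 and 13.5 RPKM in wild types and 7.61, 8.38, 9.10 and 11.3 RPKM in knockouts. All 6 SVZ libraries lay above all 14 hippocampal libraries, and the hippocampal rounds overlapped. Lrp5 was higher in SVZ than in HC1 (1.09, SE 0.13, adjusted p = 7.44e-05) and than in HC2 (0.93, SE 0.12, adjusted p = 4.77e-06), and these calls held in every setting run. Lrp6 had medians of 20.0 RPKM in SVZ, 22.3 RPKM in HC1 and 27.4 RPKM in HC2, and its HC2 values of 24.2 to 30.1 RPKM lay above all SVZ values. It was higher in HC2 than in HC1 (0.31, SE 0.08, adjusted p = 0.0036) and lower in SVZ than in HC2 (-0.43, SE 0.08, adjusted p = 0.000179). In the knockout groups alone the first was 0.21 (adjusted p = 0.168).

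Ryk, an inactive-kinase receptor of Wnts, had the highest RPKM of the members in SVZ, with 82.0, 89.0 and 92.3 RPKM as lowest, median and highest values. HC1 had 82.9, 90.1 and 105 RPKM and HC2 had 82.6, 111 and 127 RPKM, and the ranges overlap throughout. HC2 exceeded HC1 by 0.24 (SE 0.09, adjusted p = 0.0267), a call lost in 7 of 23 other settings, and SVZ was below HC2 by -0.30 (SE 0.09, adjusted p = 0.00532). The receptor kinase Ror2 passed in none of the comparisons, with medians of 3.78, 3.19 and 2.00 RPKM in SVZ, HC1 and HC2. Its relative Ror1 was lower in SVZ (0.300 to 0.656 RPKM) than in HC2 (0.678 to 1.64 RPKM), without overlap (-0.38, SE 0.11, adjusted p = 0.00624). It was -0.20 (adjusted p = 0.394) with the cell cycle covariate.

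The secreted antagonist Sfrp1, which binds Wnts, was lower in HC2. Its lowest, median and highest values were 11.2, 15.1 and 20.9 RPKM in SVZ, 7.79, 12.6 and 14.3 RPKM in HC1 and 5.18, 7.01 and 9.87 RPKM in HC2. Only HC1 wild type replicate 2, at 7.79 RPKM, fell among the HC2 values. HC2 minus HC1 was -0.66 (SE 0.16, adjusted p = 0.0021), and SVZ minus HC2 was 1.01 (SE 0.16, adjusted p = 3.03e-05). Dkk3, a relative of the Dickkopf antagonists, ran from 0.114 to 2.14 RPKM and passed nowhere. Wif1, which binds Wnts, and Notum, which removes their lipid, stayed below the filter, with highest values of 0.818 and 0.398 RPKM.

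At the nuclear end, Tcf7l1, mostly known as a repressor of Wnt targets, showed the largest member difference between hippocampal rounds. It measured 18.6, 12.2 and 11.0 RPKM in HC1 wild types and 9.36, 9.42 and 9.84 RPKM in HC1 knockouts. In HC2 it measured 1.35, 4.01, 5.81 and 3.91 RPKM in wild types and 1.73, 3.15, 2.43 and 3.79 RPKM in knockouts. SVZ had 11.4, 10.7 and 9.68 RPKM in wild types and 9.61, 8.77 and 10.5 RPKM in knockouts. No HC2 library reached any first-round library. Tcf7l1 was lower in HC2 than in HC1 (-1.61, SE 0.19, adjusted p = 2.03e-06) and higher in SVZ than in HC2 (1.45, SE 0.19, adjusted p = 4.89e-06).

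Tcf7l2, another DNA-binding partner of beta-catenin, had lowest, median and highest values of 7.53, 9.33 and 10.2 RPKM in SVZ, 8.05, 8.80 and 15.0 RPKM in HC1 and 3.98, 5.19 and 7.96 RPKM in HC2. HC2 lay below HC1 throughout and overlapped SVZ at its edge. HC2 minus HC1 was -0.71 (SE 0.14, adjusted p = 0.000413) and SVZ minus HC2 was 0.63 (SE 0.14, adjusted p = 0.000914). Lef1 was close to absent, with a median of 0.144 RPKM and a highest value of 1.26 RPKM.

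Axin2, the feedback gene of the beta-catenin branch, was highest in HC2. It measured 12.5, 16.9 and 16.6 RPKM in SVZ wild types and 12.3, 12.3 and 12.7 RPKM in SVZ knockouts. HC1 had 16.1, 17.6 and 18.2 RPKM in wild types and 13.5, 17.0 and 17.0 RPKM in knockouts. HC2 had 26.9, 19.7, 14.2 and 25.0 RPKM in wild types and 24.4, 24.7, 25.1 and 18.3 RPKM in knockouts. Of the 8 HC2 libraries, 7 exceeded every first-round library, and wild type replicate 5 was the exception. Axin2 was higher in HC2 than in HC1 (0.38, SE 0.12, adjusted p = 0.0145) and lower in SVZ than in HC2 (-0.63, SE 0.12, adjusted p = 0.000255).

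**Figure D3:**
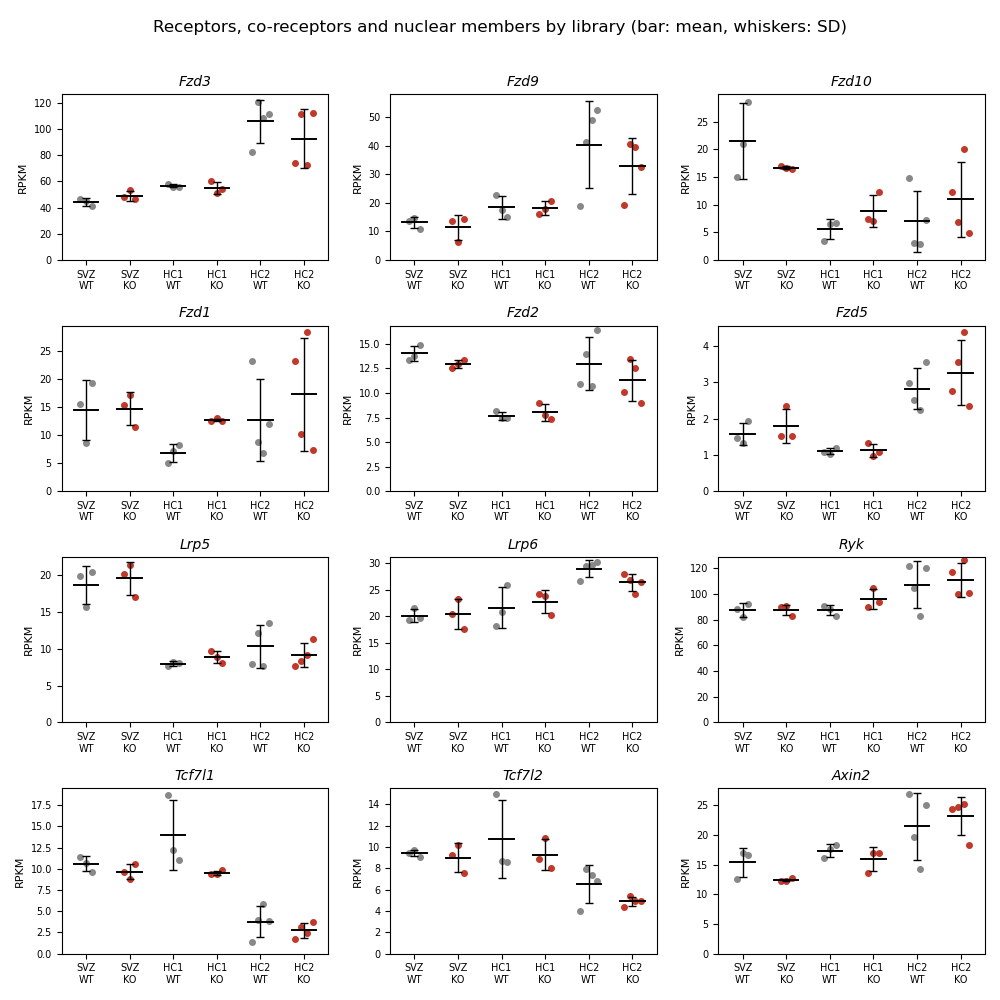
RPKM of 12 receptors, co-receptors and nuclear members in each library (points; wild type grey, knockout red), with the group mean (bar) and SD (whiskers); each panel has its own axis from 0. Lrp5 stands at 15.6 RPKM or more in SVZ and at 13.5 or less in hippocampal spheres, and Tcf7l1 at 5.81 RPKM or less in HC2 and at 8.77 or more elsewhere.

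Members of the pathway can themselves be targets of TCF and LEF factors, so the 250 bases before their start sites were read from RefSeq (GRCm38.p6). The table held 36 promoters of 29 members. They were searched on both strands for the core letters of the TCF and LEF motif, which have 4 forms here: CTTTGAA as the first, CTTTGAT with another last base, then CTTTGTA with another base before the last, and finally CTTTGTT with both. Of these promoters, 5 (13.9%) held a match, beside 14.8% of all 32851 promoters, and the median GC content was 68.6% over the member promoters and 52.4% over all. Of the 14 members that differed between HC2 and both first-round kinds, 9 were in the table, and 4 of them had a window free of annotated exons, as 16 of the 36 member windows overlap one. These 4 are shown at their most upstream listed start, with matches in capitals: Axin2 (chr11:108920099-108920348, plus strand), Fzd7 (chr1:59481897-59482146, plus strand), Wnt5b (chr6:119544348-119544597, minus strand) and Tcf7l2 (chr19:55741560-55741809, plus strand). Fzd7 holds AACAAAG, a match on the reverse strand, 130 bases before the start, and the other windows shown hold none. At downstream starts not shown, Wnt5b has a match 71 bases before 1 of 2 and Tcf7l2 has a match 14 bases before its single one. A match describes letters only and is no evidence of binding.
Axin2: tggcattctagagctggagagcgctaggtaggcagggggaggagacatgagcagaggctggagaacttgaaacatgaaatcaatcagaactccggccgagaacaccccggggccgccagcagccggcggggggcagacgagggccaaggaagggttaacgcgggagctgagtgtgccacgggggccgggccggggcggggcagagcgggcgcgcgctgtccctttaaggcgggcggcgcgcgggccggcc
Fzd7: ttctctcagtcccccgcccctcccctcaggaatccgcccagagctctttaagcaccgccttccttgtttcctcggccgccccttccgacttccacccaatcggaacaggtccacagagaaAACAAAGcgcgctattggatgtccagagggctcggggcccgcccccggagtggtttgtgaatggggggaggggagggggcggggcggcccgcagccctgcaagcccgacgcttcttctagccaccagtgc
Wnt5b: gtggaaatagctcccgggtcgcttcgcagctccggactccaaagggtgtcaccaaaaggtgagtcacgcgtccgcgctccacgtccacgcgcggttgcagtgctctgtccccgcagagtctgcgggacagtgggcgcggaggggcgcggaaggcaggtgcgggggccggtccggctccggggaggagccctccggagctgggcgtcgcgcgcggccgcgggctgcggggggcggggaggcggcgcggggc
Tcf7l2: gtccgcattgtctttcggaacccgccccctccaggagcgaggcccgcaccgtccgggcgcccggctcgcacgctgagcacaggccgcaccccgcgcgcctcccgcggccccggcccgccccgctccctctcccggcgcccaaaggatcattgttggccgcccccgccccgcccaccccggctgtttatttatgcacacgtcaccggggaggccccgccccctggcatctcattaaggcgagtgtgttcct

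Egfl7 knockout spheres were compared with wild-type spheres to ask which genes depend on this secreted factor, and the Wnt members showed no called difference. In SVZ, HC1 and HC2, 0 of 28 members passed (limma, adjusted p), where 0.0122%, 0.0122% and 0.0244% of all genes did. At an unadjusted p under 0.05, 0, 0 and 1 members were found, beside 2.31%, 3.94% and 3.93% of all genes. The count stayed at 0 in every setting run. The median member differed by -0.10 in SVZ, 0.07 in HC1 and -0.07 in HC2 on the log2 scale, against -0.00207, -0.01 and 0.000447 over all genes.

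In SVZ, 3 of 28 members had groups that did not overlap, beside 7.76% of all genes, and all 3 were lower in the libraries labelled knockout, as were 4.35% of all genes. Wnt5a measured 25.2, 26.9 and 24.7 RPKM in knockouts and 30.4, 29.4 and 37.8 RPKM in wild types (-0.32, SE 0.23, adjusted p = 1). Fzd2 measured 12.6, 12.9 and 13.4 RPKM in knockouts and 13.4, 13.8 and 14.9 RPKM in wild types (-0.11, SE 0.16, adjusted p = 1), with a gap between groups smaller than the last digit shown. The third was Wnt3, at 0.088 RPKM or less in knockouts. It rested on 1, 1 and 0 reads in knockouts and 1, 4 and 3 in wild types. By reads the Wnt3 groups therefore met at 1, and only the depth scaling separated them. Since 1 library of each SVZ genotype went against its label in Egfl7, these differences follow the labels and not the measured gene.

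In HC1, 6 of 28 members had groups that did not overlap, beside 13.7% of all genes: 4 higher in knockouts (6.63% of all genes) and 2 lower (7.05%). Fzd1 measured 12.6, 13.0 and 12.6 RPKM in knockouts and 4.99, 7.18 and 8.30 RPKM in wild types. That is a log2 difference of 0.83 (SE 0.44, adjusted p = 0.976, limma). Each SE rests on a spread shared by all 6 groups. For Fzd1 the SD was 10.1 (knockout) and 7.36 RPKM (wild type) in HC2, against 0.26 and 1.68 RPKM in HC1. Fzd7 (0.35, SE 0.20), Sfrp1 (0.39, SE 0.24) and Fzd10 (0.60, SE 0.49) were likewise higher in all 3 knockout libraries, and Tcf7l1 (-0.47, SE 0.29) and Wnt3 (-0.45, SE 0.21) were lower. None of these passed over all genes. Knockout donors were male and wild-type donors female, and the cell cycle mean ran from 5.80 to 6.32 among knockout and from 4.92 to 6.02 among wild-type libraries. The part of either in these differences was not tested.

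In HC2, where all donors were male, 0 of 28 members had groups that did not overlap, beside 1.13% of all genes. Fzd8 came closest. It measured 6.79, 5.10, 5.06 and 4.42 RPKM in knockouts and 6.32, 7.78, 7.17 and 6.58 RPKM in wild types. All but knockout replicate 1 lay below all wild types (-0.34, SE 0.14, adjusted p = 0.988, limma), and this was the member with an unadjusted p under 0.05. In HC1, Fzd8 had 5.39, 4.37 and 4.61 RPKM in knockouts and 3.65, 2.92 and 4.43 RPKM in wild types (0.32, SE 0.16, adjusted p = 0.976). The difference between these 2 effects was 0.66 (SE 0.21, adjusted p = 1, limma), so it did not pass. No member's genotype effect was called as differing between any pair of sphere kinds. In each pair 0 of 28 passed, where 0.0305% (SVZ and HC2), 0.0244% (HC1 and HC2) and 0.0122% (SVZ and HC1) of all genes did. At an unadjusted p under 0.05 there were 0, 1 and 3 members, beside 1.98%, 2.57% and 2.88% of all genes.

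**Figure D4:**
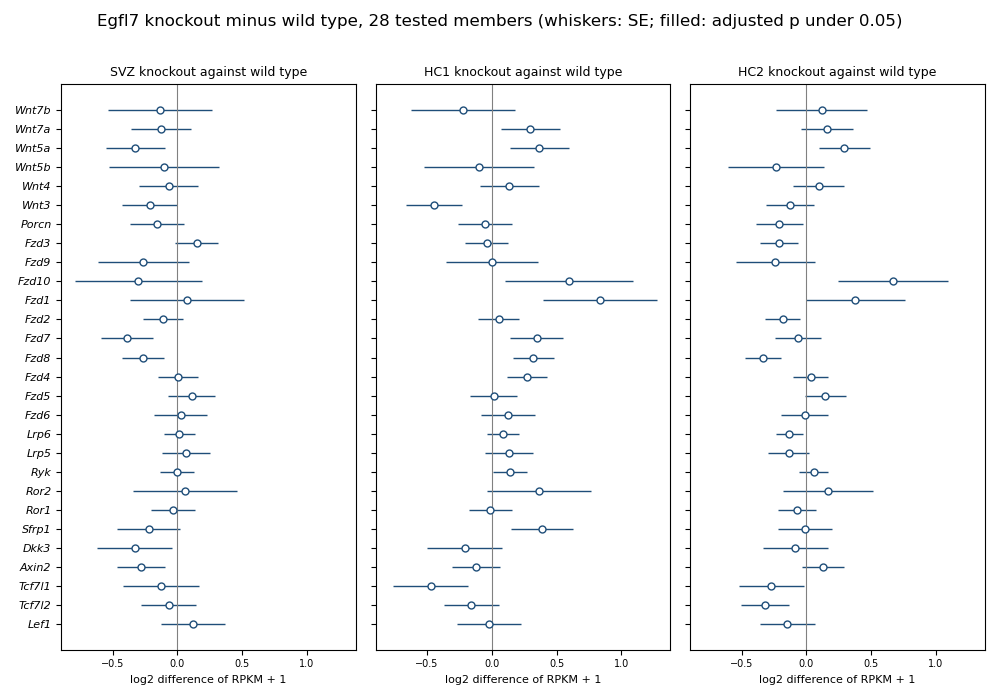
Knockout minus wild-type log2 differences of RPKM + 1 for the 28 tested members (points; whiskers show the SE) in SVZ, HC1 and HC2. All points are open because 0 members had an adjusted p under 0.05; Fzd1 in HC1 (0.83) lies farthest from 0.

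Within HC2, several members were correlated with the cell cycle list. Knockout libraries averaged 5.80, 4.11, 5.88 and 3.66 for this list, and wild-type libraries 6.12, 2.83, 1.87 and 3.78. The libraries were spread between 1.87 and 4.11 in 5 cases and lay between 5.80 and 6.12 in 3, with none between. Over the 8 libraries, 6 of 28 members were correlated with this mean (21.4%), beside 16.4% of all genes (exact permutation of all pairings, two-sided, Benjamini-Hochberg adjusted over all 16403 genes). Correlations were positive for 4 (Fzd10, Fzd1, Wnt7a and Axin2; 11% of all genes) and negative for 2 (Tcf7l1 and Tcf7l2; 5.44% of all genes), and each had the same sign within both genotypes. By Spearman's rho, 3 members passed: Tcf7l1, Fzd10 and Wnt7a.

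Fzd10 had a Pearson r of 0.962 (exact permutation p = 0.000397, adjusted p = 0.0114) and a Spearman rho of 0.952 (exact permutation p = 0.00114, adjusted p = 0.0235). In order of rising cell cycle mean its values were 2.80, 3.04, 4.92, 7.26, 6.81, 12.2, 20.0 and 14.7 RPKM. They climbed through the lower 5 libraries as well as between the lower and upper ones. Without wild type replicates 2 and 5, the libraries farthest from the median, r was 0.956. Tcf7l1 ran in the opposite direction, at 5.81, 4.01, 3.79, 3.91, 3.15, 1.73, 2.43 and 1.35 RPKM in the same order. Its r was -0.955 (exact permutation p = 0.000124, adjusted p = 0.00706), its rho -0.952 (exact permutation p = 0.00114, adjusted p = 0.0235), and its r without the same libraries -0.924.

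Wnt7a, which passed in no comparison of sphere kinds, was also graded within HC2, at 21.3, 30.2, 30.0, 37.5, 34.5, 45.1, 38.4 and 47.1 RPKM in that order. Its r was 0.921 (exact permutation p = 0.00067, adjusted p = 0.0146), its rho 0.929 (exact permutation p = 0.00223, adjusted p = 0.0321) and its r without those libraries 0.834. The call was lost in 2 of 11 other settings, without wild type replicate 2 (r 0.896, adjusted p = 0.0523) or 5 (r 0.88, adjusted p = 0.0758). Fzd1 stood at 6.75 to 11.9 RPKM in the lower 5 libraries and at 23.2 to 28.4 RPKM in the upper 3. Its r was 0.939 (exact permutation p = 0.00189, adjusted p = 0.0244), its rho 0.881 (exact permutation p = 0.00724, adjusted p = 0.055) and its r without those libraries 0.933. The call was lost in 6 of 11 other settings, each leaving out 1 library, where r stayed between 0.927 and 0.947 and fewer libraries were left.

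For Tcf7l2 r was -0.873 (exact permutation p = 0.00796, adjusted p = 0.049), rho was -0.881 (exact permutation p = 0.00724, adjusted p = 0.055) and r without those libraries was -0.796. For Axin2 r was 0.836 (exact permutation p = 0.00809, adjusted p = 0.0495), rho was 0.881 (exact permutation p = 0.00724, adjusted p = 0.055) and r without those libraries was 0.635. Both calls were lost in at least 8 of 11 other settings. Gfap, the astrocyte filament gene, was at 536, 114, 328, 20.8, 84.9, 9.96, 2.47 and 1.33 RPKM in the same order of libraries, so the cell cycle mean and astrocyte expression moved together with these members, and their part was not tested. Wnt7b, with r = -0.597 (exact permutation p = 0.122, adjusted p = 0.251) and rho = -0.5 (exact permutation p = 0.216), did not pass.

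**Figure D5:**
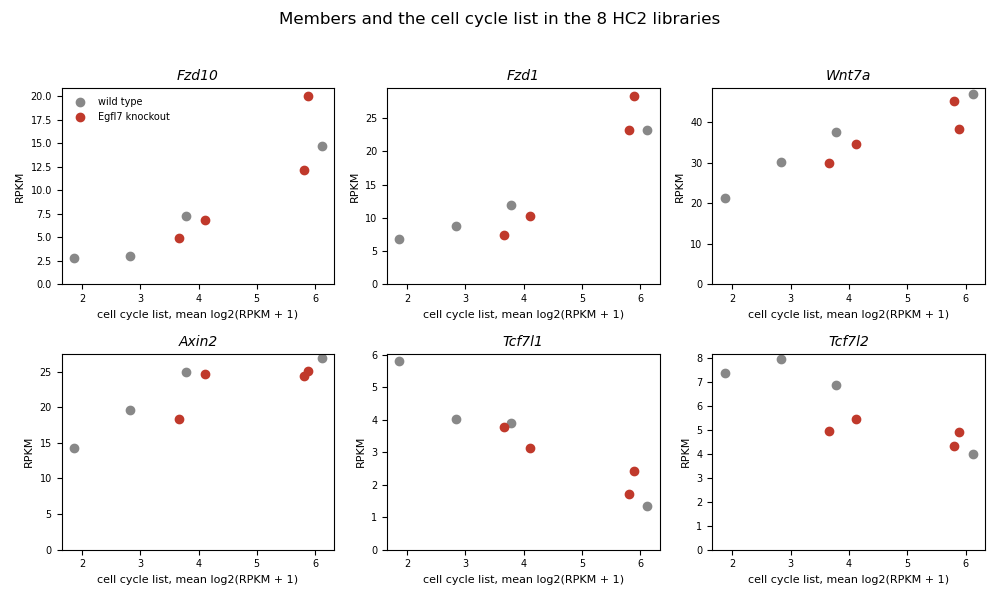
RPKM of 6 members against the mean log2(RPKM + 1) of the cell cycle list in the 8 HC2 libraries (points; wild type grey, knockout red; vertical axes from 0). Fzd10, Fzd1 and Wnt7a are higher and Tcf7l1 and Tcf7l2 lower in all 3 libraries whose mean is 5.80 or more than in the other 5, Axin2 overlaps, and both genotypes occur at both ends.

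Further genes of the pathway were read from lists of 27 signal transduction genes, 25 other secreted and membrane modulators, 10 target genes and 14 planar cell polarity genes. In the 3 genotype comparisons 0 of the kept genes in these lists passed, beside 0.0122% (SVZ), 0.0122% (HC1) and 0.0244% (HC2) of all genes. From HC2 to HC1, 7 of 27 transduction genes were higher and 10 lower, beside 22.8% and 31.5% of all genes. Dvl1, which relays the Frizzled signal, was higher (1.06, SE 0.07, adjusted p = 1.98e-09), whereas its paralog Dvl3 was lower (-1.54, SE 0.11, adjusted p = 2.11e-09). Bcl9, a co-activator of beta-catenin, was lower in HC2 (-2.20, SE 0.11, adjusted p = 4.54e-11). From SVZ to HC1, 3 of 27 were higher, led by the DNA-binding factor Tcf7 (1.19, SE 0.14, adjusted p = 6.91e-05), and 3 lower, led by Apc2, a relative of the destruction complex scaffold Apc (-1.23, SE 0.15, adjusted p = 6.91e-05). Of all genes, 14.5% were higher and 19.6% lower from SVZ to HC1. From SVZ to HC2, 11 of 27 were higher and 9 lower, beside 34.7% and 32.6% of all genes.

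Of the 14 modulators kept, 2 were higher and 4 lower from SVZ to HC1, 3 and 2 from HC2 to HC1, and 2 and 6 from SVZ to HC2. Over all genes the shares in this order were 14.5% and 19.6%, 22.8% and 31.5%, and 34.7% and 32.6%. The same shares stand beside the target and polarity counts below. Rnf43, a ligase that removes Frizzled from the surface, was lower in SVZ than in HC1 (-1.71, SE 0.26, adjusted p = 0.000278), at 0.969 ± 0.197 against 5.56 ± 1.66 RPKM (SD, n = 6 each), while its partner Znrf3 was higher (0.46, SE 0.13, adjusted p = 0.0132). Of the 9 target genes kept, 1 was higher and 1 lower from SVZ to HC1, 2 and 2 from HC2 to HC1, and 4 and 1 from SVZ to HC2. Myc, a growth regulator, was lower in HC2 than in HC1 (-1.14, SE 0.23, adjusted p = 0.000561), and Tnfrsf19, a receptor found in neural stem cells, was higher (0.52, SE 0.13, adjusted p = 0.00259). The target genes called between hippocampal rounds thus went in both directions. Of the 14 polarity genes, 3 were higher and 3 lower from SVZ to HC1, 6 and 2 from HC2 to HC1, and 3 and 6 from SVZ to HC2. Celsr1, a core polarity cadherin, was higher in HC2 than in HC1 (1.44, SE 0.34, adjusted p = 0.00201), as was the Wnt co-receptor Ptk7 (0.93, SE 0.06, adjusted p = 3.87e-10). Between SVZ and HC2 all 21 cell cycle genes were higher and all 6 astrocyte markers lower in SVZ, and their part in the member differences was not tested.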

How the data were processed

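RNA was measured in 20 neurosphere libraries in 6 groups, prepared with a stranded total RNA kit followed by mouse exon capture, per the labels' protocols. The authors deposited linear RPKM values for 36724 genes, written with decimal commas, and a second table of 19709 genes, per the file headers. FastQC 0.11.5, DESeq2 and the builds mm10 and GRCm38 are named in the submitters' processing notes. The labels and headers name no aligner, counter, strand setting or gene lengths. Other genes overlapping a member could therefore share its reads.

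Values were tested as log2(RPKM + 1), a log2 scale computed from the deposited RPKM, with limma 3.58.1 in R 4.3.3 (trend, robust, all 6 groups, 14 residual degrees of freedom, Benjamini-Hochberg over 16403 genes kept at 0.5 RPKM or more in at least 3 libraries). Correlations used exact permutation, adjusted over all genes and not over the members as first planned. Scripts were tested on simulated data. Library totals were not used here; for low genes whole reads were recovered from the steps of the RPKM (within 0.12 read plus 1%), which worked for 9 of 16 low members tried. Of 1000 low genes checked, 69.7% came out as whole reads in all libraries, and 3 reads served as the floor.

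Members with a group mean of 1 RPKM or more are named, and others are given by counts and ranges, and called members are always named. From the other pathway lists, up to 2 called genes per direction could be named. Members, lists and the SVZ libraries in doubt were chosen with earlier results of these data known. Whether replicates of a group are separate animals rests on the mouse numbers in the titles, some of which recur across groups. Alternatives were the pseudocount, other filters or gene sets, scaling, array weights, fewer groups, left-out libraries, a replicate block and a cell cycle covariate. No pairing of knockout with wild type by shared replicate numbers was seen in SVZ or HC1. The libraries were treated as unpaired, also where a mouse number recurs across sphere kinds, which was not checked.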

Additional observations from a re-analysis of the deposited data

Results flagged for a closer look

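In the HC2 groups of 4 libraries, 3 values stood apart from the others of their genotype, out of 56 groups examined, where chance flags about 1 in 20. Axin2 was 18.3 RPKM in knockout replicate 8, below the 24.4 to 25.1 RPKM of the other knockouts. Fzd4 was 1.93 RPKM in wild type replicate 5, below the 2.30 to 2.33 RPKM of the other wild types. Lef1 was 1.26 RPKM in knockout replicate 1, above the 0 to 0.149 RPKM of the other knockouts. No member's genotype effect was found to differ between sphere kinds.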

How the results depend on the processing

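The 0 calls in each genotype comparison, and in the 2 planned differences of genotype effects (HC2 against either first-round kind), held in every setting run; the difference between SVZ and HC1 was added later and run once. With the replicate number as a block, 0 members passed in SVZ and 0 in HC1. Same-numbered knockout and wild-type libraries deviated together with correlations of -0.259 to 0.00726 in SVZ and -0.115 to -0.0286 in HC1. No pairing by replicate number was thus seen there, and the block fit has 2 residual degrees of freedom. Some mouse numbers recur across sphere kinds with the same genotype and sex, and pairing by them was not checked. The sphere comparisons treated those libraries as independent. Leaving out 1 library at a time gave 5 to 6 calls from SVZ to HC1, 15 to 17 from HC2 to HC1, 19 to 20 from SVZ to HC2, and 2 to 5 in place of 6 members correlated with the cell cycle mean in HC2. The count from SVZ to HC1 was 11 with array weights, 11 with only the groups compared, 3 without both SVZ libraries in doubt (Lrp5, Fzd2 and Wnt3) and 2 in the knockout groups alone (Lrp5 and Fzd2), the latter with fewer libraries. The count from HC2 to HC1 was 10 in the knockout groups alone. With the cell cycle covariate, added after seeing the data, Fzd10 from SVZ to HC2 turned to -0.36. The counts with it were 4, 17 and 13, of which 3, 13 and 10 were among those reported. The cause of these changes was not tested, and no SVZ library overlaps a hippocampal one in the covariate. Tcf7l1 and Fzd10 kept their HC2 correlation in 11 of 11 settings. Depth limits the 15 members below the filter.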

Other observations

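The RPKM ratio of Wnt7b to Wnt7a, 2 close relatives, differed among HC2 libraries. It was 3.62 to 4.47 in the 5 HC2 libraries with a cell cycle mean of 4.11 or less and 0.934, 1.18 and 1.80 in the 3 others. Only HC1 wild type replicate 1, at 3.33, came near the former among the 12 first-round libraries. This split was noticed in the data and was not tested.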
